A study of Mus musculus with 48 samples.

Results

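The genes of hepatic fat synthesis and the transcription factor gene Srebf1 were followed in liver and gut of mice that had received faecal transplants. The 10 genes are Srebf1, Fasn, Acaca, Acly, Scd1, Me1, Thrsp, Pnpla3, Gpam and Tm6sf2, out of 20702 genes with a symbol on the array. They were taken by symbol from the authors' comparison tables, where 12 of the 35556 transcript clusters carry one of these names. Acaca and Me1 have 2 clusters each, and the brighter cluster of a gene in a tissue was used. All 12 clusters carry a protein accession that RefSeq assigns to the gene of that name.

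RNA came from male C57BL/6J recipients, matched for an age that the labels leave out, that ate normal diet and were given stool from high-fat-fed donors (HF), donors fed a ketogenic diet (KD) or chow-fed donors (NC). Tissue was taken at zeitgeber time ZT12 (lights off) or ZT0 (lights on) of a cycle of 12 h light and 12 h dark. Tissue, donor diet and time made 12 groups with 4 arrays in each, 48 arrays in all. The number of donors behind a group is unstated in the labels. The growth protocol also names germ-free mice without saying which samples they are. The gut samples are labelled "Gut (DI)", and DI is not spelled out. Nothing beyond titles says that arrays of a group are separate animals, so p-values measure the spread between these samples, which may be technical.

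De novo fat synthesis turns surplus carbohydrate into triglyceride, and liver and adipose tissue are its main sites. ATP citrate lyase (Acly) makes cytosolic acetyl-CoA, acetyl-CoA carboxylase (Acaca) makes malonyl-CoA, fatty acid synthase (Fasn) builds palmitate with NADPH that malic enzyme (Me1) helps to supply, and stearoyl-CoA desaturase (Scd1) adds a double bond. Srebf1 encodes SREBP-1, the insulin-responsive transcription factor that switches these genes on, and feeding, which mice do mainly in the dark, raises it in liver.

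The tissues carried their own markers. The summed level of 10 intestinal epithelium markers was 1741 to 2682 intensity units in liver and 45600 to 58281 in gut. The 10 hepatocyte markers summed to 99696 to 112374 units in liver and 14269 to 22636 in gut, where Apoa1, which intestine also makes, held 10013 to 13067. The 10 adipocyte markers summed to 3621 to 4624 units in liver, of which the broadly expressed Adipor2 was 2729 to 3821, and to 2650 to 11479 units in gut. All 6 clock genes listed as a check of the time labels moved between the times in both tissues, Dbp by a log2 fold change of 4.30 ± 0.08 in liver and 3.44 ± 0.11 in gut (SE). No 2 arrays held identical values.

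Of the 10 genes, 9 were brighter in liver than in gut, and Tm6sf2 was brighter in gut. Thrsp, whose small nuclear protein promotes lipogenic gene output, spanned 3273 to 10727 units over the 24 liver arrays (median 8091) and 53.8 to 1277 over the 24 gut arrays (median 447), a 17.2-fold difference of group means (log2 difference, liver minus gut, 4.10 ± 0.21, SE). Gpam, the mitochondrial glycerol-3-phosphate acyltransferase that starts triglyceride synthesis, spanned 1903 to 5254 units in liver and 167 to 235 in gut, 16.5-fold (4.05 ± 0.07). The next largest differences were those of Me1 (3.69 ± 0.12), Fasn (2.99 ± 0.11) and Srebf1 (2.45 ± 0.08).

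Tm6sf2, which is needed to load lipid onto the particles that liver and intestine secrete, had 604 to 1141 units in liver and 3005 to 4334 in gut, so the lowest gut array lay above the highest liver array (log2 difference, liver minus gut, -1.77 ± 0.05). Scd1 spanned 10450 to 14037 units in liver and 654 to 6514 in gut. For Pnpla3, a lipid droplet hydrolase and acyltransferase, the ranges met, with 138 to 1039 units in liver and 73.2 to 144 in gut. All 10 differences passed limma's test (largest Benjamini-Hochberg adjusted p 5.4e-15), on a background where 86.4% of genes passed. In such bulk samples fewer cells of a type and less RNA per cell cannot be told apart.

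**Figure D1:**
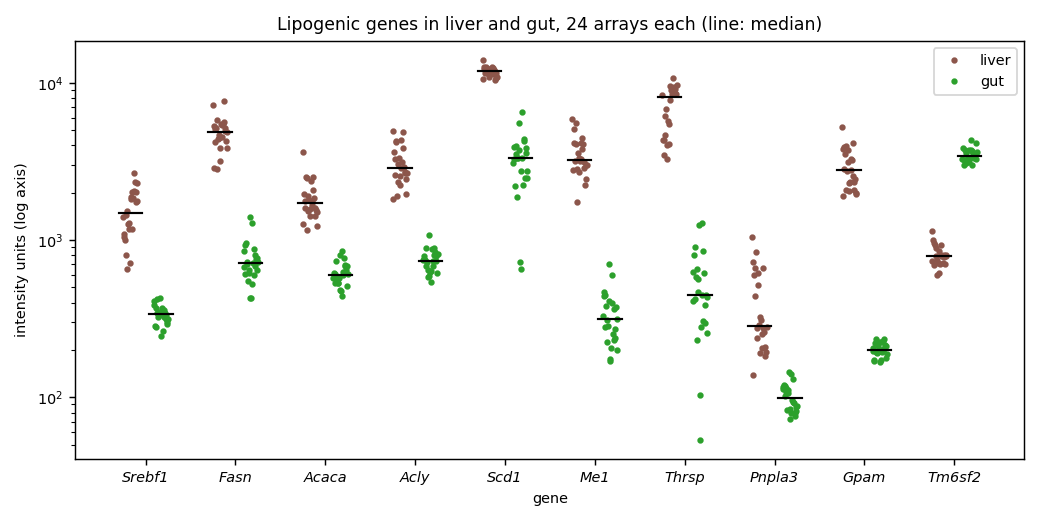
Intensity of the 10 genes on each array, in intensity units on a log axis, with liver points left of gut points and a line at each median (24 arrays per tissue). All genes but Tm6sf2 sit higher in liver, and Thrsp and Scd1 spread widely in gut. Heights are to be compared within a gene only.

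In liver, Srebf1 and Thrsp were higher and Pnpla3 lower at ZT12 than at ZT0, while no enzyme of the chain from Acly to Scd1 was called. Srebf1 had 1832, 1871, 2023 and 1175 units in HF recipients at ZT12, against 1410, 1092, 1053 and 1001 at ZT0. In KD recipients it had 1849, 2668, 2051 and 2357 units at ZT12, against 1446, 803, 1520 and 652 at ZT0. In NC recipients it had 2008, 1759, 1774 and 2300 units at ZT12, against 1260, 1171, 1280 and 716 at ZT0. The times did not overlap in KD and NC recipients, with every ZT12 array higher, as for 4.87% of genes in KD and 7.74% in NC recipients, and in HF recipients 1 ZT12 array lay among the ZT0 arrays. The log2 fold change at ZT12 was 0.58 ± 0.22 in HF (SE, n = 4 per group, limma adjusted p = 0.12), 1.09 ± 0.22 in KD (adjusted p = 0.0025) and 0.84 ± 0.22 in NC recipients (adjusted p = 0.018). Over the 3 donor diets together it was 0.84 ± 0.13 (limma adjusted p = 2.7e-05). The NC call was lost when any 1 of 3 arrays was left out, with a log2 fold change of 0.63 without NC ZT0 replicate 6 (adjusted p = 0.085), 0.81 without NC ZT12 replicate 11 (0.052) and 0.76 without NC ZT12 replicate 8 (0.064; limma). The HF change passed when only the compared groups were fitted (log2 fold change 0.58, adjusted p = 0.048) and with array weights (0.63, adjusted p = 0.040; limma).

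Ordered by mean normalised log2 level in liver, Srebf1 stood at 11.13 ± 0.25 in KD ZT12, 10.93 ± 0.18 in NC ZT12, 10.75 ± 0.35 in HF ZT12, 10.16 ± 0.22 in HF ZT0, 10.09 ± 0.42 in NC ZT0 and 10.04 ± 0.56 in KD ZT0 (SD, n = 4). Neighbours in this order differed by less than the SD of at least 1 of the pair, except HF ZT12 and HF ZT0, where the times meet. Within a time no donor comparison of Srebf1 passed the test.

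Thrsp rose in all 3 recipient groups. It had 7787, 9546, 9060 and 8453 units in HF recipients at ZT12, against 8396, 4345, 4349 and 3464 at ZT0. KD recipients had 9254, 10727, 9385 and 9282 units at ZT12, against 6113, 4688, 6780 and 4007 at ZT0. NC recipients had 9138, 8655, 8533 and 9655 units at ZT12, against 3273, 5688, 5512 and 4077 at ZT0. Of the 12 ZT0 arrays, 11 lay below every ZT12 array, and the exception was HF ZT0 replicate 2 at 8396. The log2 fold changes were 0.81 ± 0.21 in HF, 0.84 ± 0.21 in KD and 0.94 ± 0.21 in NC recipients (SE, n = 4 per group; limma adjusted p = 0.016, 0.011 and 0.0041), and 0.86 ± 0.12 over the diets (adjusted p = 6.3e-06). In HF recipients the call was lost when any 1 of 3 arrays was left out: the log2 fold change was 0.66 without the ZT0 array of replicate 5 (limma adjusted p = 0.070), and 0.75 without that of replicate 4 or without ZT12 replicate 13 (0.053 each).

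Pnpla3 ran the other way. It had 190.5, 324, 309 and 207 units in HF recipients at ZT12, against 1039, 138, 728 and 600 at ZT0. KD recipients had 252, 662, 274 and 260 units at ZT12, against 668, 441, 838 and 237 at ZT0, and NC recipients had 182, 209, 193 and 281 units at ZT12, against 277, 517, 618 and 290 at ZT0. The times overlapped in every diet, through HF ZT0 replicate 3, KD ZT0 replicate 7, KD ZT12 replicate 12 and NC ZT0 replicate 1. Its fall passed the test over the 3 diets, with a log2 fold change of -0.78 ± 0.25 (SE, limma adjusted p = 0.023), and in no diet singly (-0.96 ± 0.44 in HF, -0.53 ± 0.44 in KD, -0.84 ± 0.44 in NC). Without HF ZT0 replicate 3, the lowest of all, the HF change was -1.54 ± 0.36 (limma adjusted p = 0.0095).

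Of the 10 genes, limma therefore called 1 in HF (7.85% of all genes called), 2 in KD (8.65%), 2 in NC (9.09%) and 3 over the diets (28.3%, either direction). The median change over the 10 genes was -0.04 over the diets, against 0.01 over all genes. Gpam was lower at ZT12 without passing (-0.32 ± 0.14, adjusted p = 0.090), and passed without HF ZT0 replicate 3 (-0.41 ± 0.12, adjusted p = 0.016) or KD ZT0 replicate 7 (-0.39 ± 0.13, adjusted p = 0.030; limma). Fasn (0.14 ± 0.13), Acaca (-0.11 ± 0.14), Acly (-0.04 ± 0.15), Scd1 (-0.04 ± 0.04), Me1 (-0.17 ± 0.14) and Tm6sf2 (-0.01 ± 0.07) were not called. The 95% interval for Fasn ran from -0.13 to 0.40, so changes of the size seen for Srebf1 or Thrsp lie outside it. Scd1 is among the brightest clusters in liver, with 26 brighter by mean. Its liver values ran from 10450 to 14037 units, where the brightest cluster reached 17254.

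**Figure D2:**
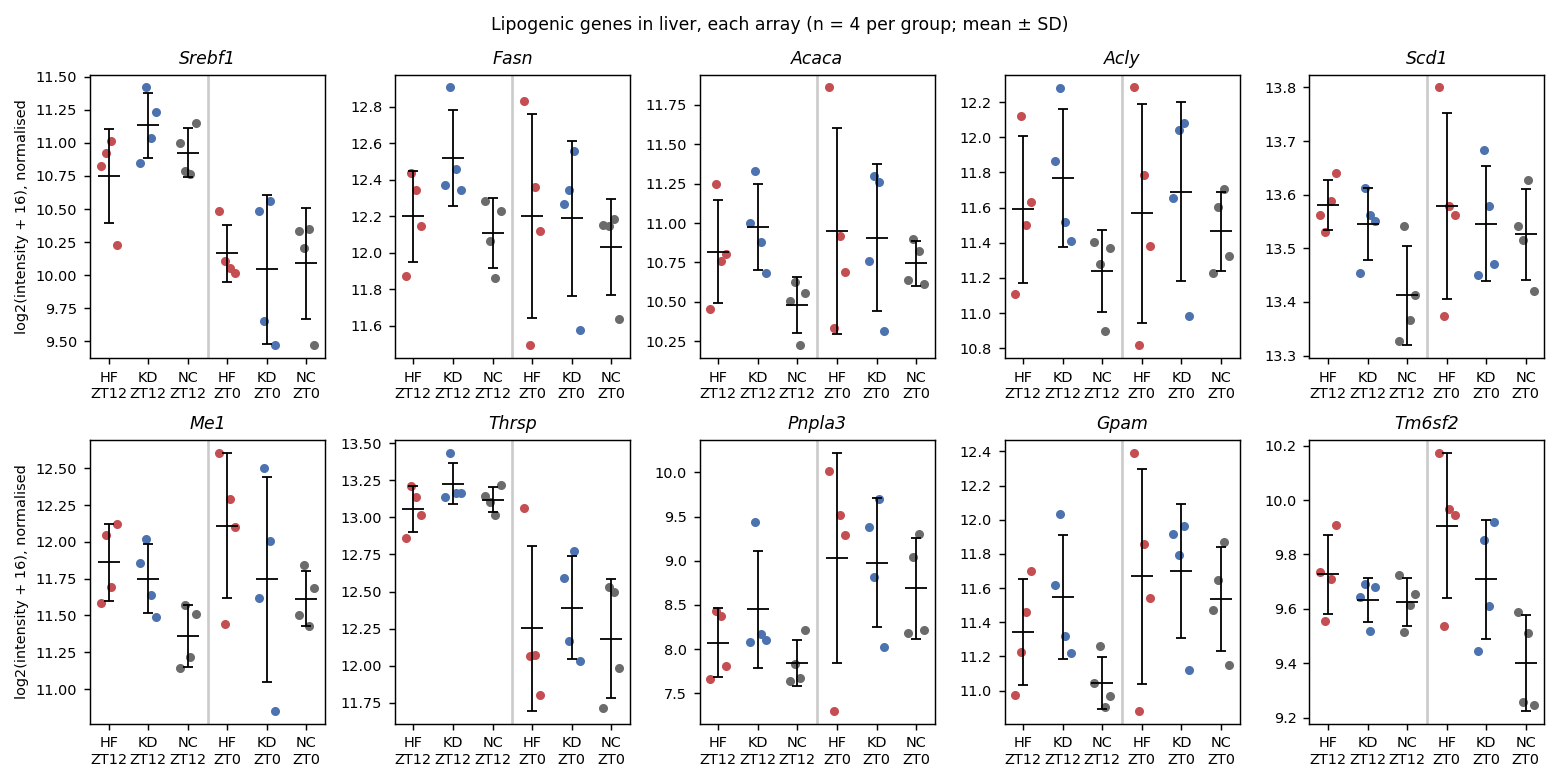
Normalised log2(intensity + 16) of each gene on each liver array, by donor diet, with ZT12 groups left and ZT0 groups right (bars: mean ± SD, n = 4). Srebf1 and Thrsp stand higher at ZT12, Pnpla3 mostly lower, and arrays of HF ZT0 and KD ZT0 spread widely.

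Srebf1 changed with time differently in the 2 tissues. In a fit over all 48 arrays, added after its liver values were seen, the ZT12 minus ZT0 change was 0.83 in liver and -0.13 in gut, a difference of 0.96 ± 0.15 (SE, limma adjusted p = 5.1e-06). For Thrsp the changes were 0.75 in liver and -0.37 in gut, a difference of 1.12 ± 0.42 that did not pass (adjusted p = 0.056). Leaving out 1 of 5 arrays put that difference past the threshold, from 0.0079 without gut HF ZT12 replicate 8 to 0.042 without liver HF ZT0 replicate 2, through gut NC ZT0 replicate 6 (0.010), gut KD ZT0 replicate 6 (0.029) and gut KD ZT12 replicate 12 (0.039). Of the 10 genes 1 was called, against 17.6% of all genes. Without liver HF ZT0 replicate 3 the count was 3, with Pnpla3 (-0.74 ± 0.22) and Gpam (-0.39 ± 0.13) joining Srebf1.

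**Figure D3:**
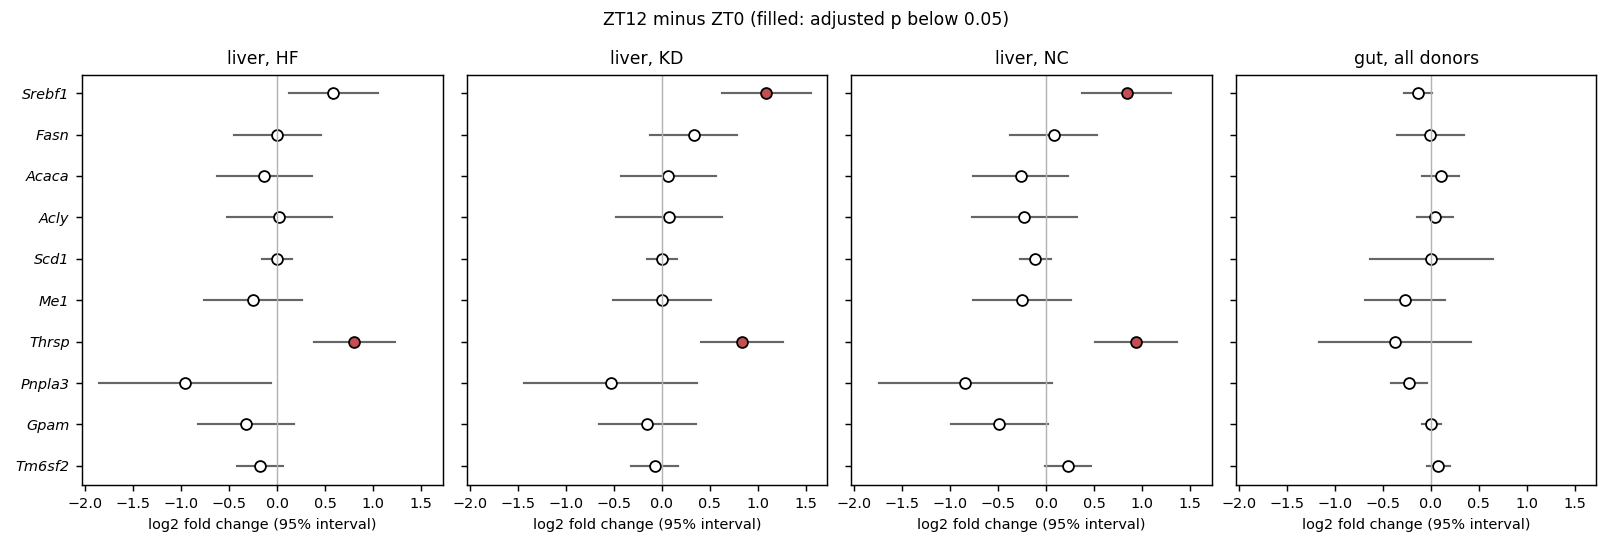
Log2 fold change, ZT12 minus ZT0, with 95% intervals from limma, for each donor diet in liver and over all diets in gut. Filled points passed the test: Thrsp in all 3 liver panels and Srebf1 in KD and NC recipients. No gut point is filled.

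Donor diet was the study's treatment, and no lipogenic gene passed the test for it in liver. At ZT12, 10 of 10 genes were above NC in KD recipients (median log2 fold change 0.40, against 0.00 over all genes), with limma calling 0 members and 0% of genes, and 2 members, Acaca and Gpam, among the 827 genes at unadjusted p under 0.05. Acaca had 2076, 2516, 1849 and 1600 units in KD recipients, against 1429, 1552, 1220 and 1510 in NC recipients. Its dimmer cluster had a log2 fold change of 0.42 ± 0.30 (SE, limma), against 0.50 ± 0.24 for the brighter one used here. Only the brighter Acaca cluster met the unadjusted cut. Acly had 3829, 4854, 2917 and 2703 units in KD recipients, against 2681, 2463, 1960 and 2678 in NC recipients. Fasn had 5448, 7666, 5629 and 5159 units in KD recipients, against 4938, 4254, 3870 and 4858 in NC recipients. In these 3 genes every KD array lay above every NC array, as it did in 2.03% of all genes.

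The log2 fold changes behind them were 0.50 ± 0.24 for Acaca, 0.53 ± 0.27 for Acly and 0.41 ± 0.22 for Fasn (SE, n = 4 per group), with 0.50 ± 0.24 for Gpam, 0.61 ± 0.44 for Pnpla3 and 0.39 ± 0.25 for Me1, all at an adjusted p of 1.0 (limma). The authors' deposited table gives smaller p-values for the same arrays, 0.00086 for Acaca, 0.00096 for Gpam, 0.0020 for Acly and 0.0021 for Me1, before adjustment. Adjusted again over all genes by Benjamini-Hochberg, the p-values of the authors' deposited table are 0.24 for Acaca and 0.26 for Gpam, and none of the 10 genes passes.

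In HF recipients at ZT12, 8 of 10 genes were above NC (median 0.20; limma called 0 members and 0% of genes, with 1 member, Scd1 at 0.17 ± 0.08, and 927 genes at unadjusted p under 0.05). Me1 had 3173, 4143, 3258 and 4491 units in HF recipients, against 2228, 3001, 2456 and 2983 in NC recipients, with no overlap, as in 1.99% of all genes. Its log2 fold change was 0.50 ± 0.25 (adjusted p = 0.97), and the authors' deposited table gives it a p of 0.00045 before and 0.21 after renewed adjustment. At ZT0 it was 0.50 ± 0.25 as well (adjusted p = 0.99), and over both times 0.50 ± 0.17 (adjusted p = 0.70; limma). The 2 Me1 clusters gave close values over both times, 0.50 ± 0.19 for the dimmer one.

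At ZT0, 10 of 10 genes were above NC in HF recipients (median 0.15) and 9 of 10 in KD recipients (median 0.16), again with 0 members and 0% of genes called by limma and 1 member in each at unadjusted p under 0.05, among 1020 of the 20702 genes in HF and 1079 in KD recipients. That member was Tm6sf2 both times. It had 1141, 734, 1005 and 956 units in HF recipients at ZT0 and 699, 925, 787 and 894 in KD recipients, against 747, 604, 716 and 615 in NC recipients. One HF array and 1 KD array lay inside the NC range. The log2 fold change was 0.51 ± 0.12 for HF (adjusted p = 0.79) and 0.31 ± 0.12 for KD (adjusted p = 0.93), and at ZT12 it was 0.10 ± 0.12 for HF and 0.01 ± 0.12 for KD (limma). The change of the HF effect between the times was -0.41 ± 0.16 (adjusted p = 1.0), and no gene of the 10 had a called change of its donor effect, on a background of 0% of genes for HF and for KD.

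HF and KD effects share the NC arrays, so their common direction is not independent. The 10 genes are not independent of each other either. Their deviations within liver groups had a median correlation of 0.65 over 45 pairs of genes. Counts of genes above NC, or without overlap, are therefore not counts of separate results. Taken over both times the 10 genes had a median of 0.22 in HF recipients, with 9 above 0, and 0.27 in KD recipients, with 10 above 0, against 0.00 over all genes. Srebf1 was not among the larger ones, at -0.05 ± 0.16 in HF and 0.08 ± 0.16 in KD recipients (SE). HF against KD recipients gave 7 of 10 genes above 0 at ZT0 and 3 of 10 at ZT12, with 0 members and 0% of genes called at either time (681 and 423 genes, and 0 members, at unadjusted p under 0.05).

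**Figure D4:**
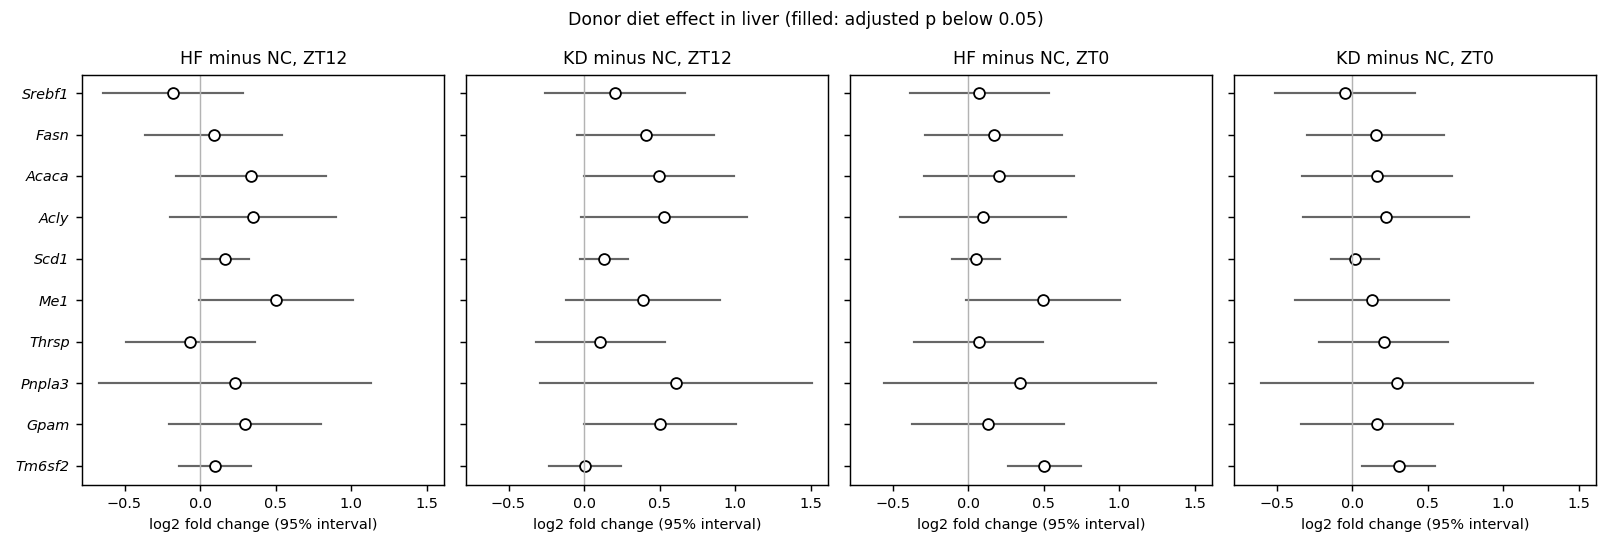
Log2 fold change of HF or KD recipients over NC recipients in liver at ZT12 and ZT0, with 95% intervals from limma (n = 4 per group). No point is filled, meaning none passed the test, and nearly all lie right of 0.

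Arrays of one group differed among themselves in liver, and most of the 10 genes moved together. After group means were removed, HF ZT0 replicate 2 had all 10 genes above its group mean (mean deviation 0.61 log2 units) and HF ZT0 replicate 3 had all 10 below (-0.61). KD ZT0 replicate 7 had 9 of 10 below (-0.51), and KD ZT12 replicate 12 had all 10 above (0.36). Over the 45 pairs of genes the correlation of these deviations across the 24 liver arrays had a median of 0.65, from -0.15 to 0.95. The highest was that of Acaca and Acly (0.95), then Fasn with Acly (0.90), Acaca (0.88) and Pnpla3 (0.88), while Tm6sf2 stood lowest with Srebf1 and Thrsp.

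Srebf1 followed Fasn, Thrsp and Pnpla3 within groups. Across the 24 liver arrays r was 0.62 with Fasn (rho 0.63, permutation p = 0.0019 and 0.0037), 0.60 with Thrsp (rho 0.70, permutation p = 0.0082 and 0.0033) and 0.57 with Pnpla3 (rho 0.64, permutation p = 0.0056 and 0.0042). These 3 of 9 relations passed after Benjamini-Hochberg adjustment over the 9 only (0.017 for r with Fasn, 0.025 with Thrsp and with Pnpla3). No share over all genes was computed, so whether Srebf1 followed these 3 more closely than it followed other genes was not tested. Without the 2 arrays farthest in Srebf1, r was 0.48 with Fasn, 0.55 with Thrsp and 0.49 with Pnpla3. The relation was weak for Me1 (r = 0.10), Scd1 (r = 0.20) and Tm6sf2 (r = -0.15), and none of these passed. Adipocyte markers, 7 or 8 of which lay below the median gene in every liver group, gave r between -0.06 and 0.46 with 9 of the genes, and passed for Tm6sf2 alone (r = 0.55, rho 0.59, adjusted permutation p = 0.033 and 0.021). On the deposited scaling, without the quantile step, that relation did not pass (r = 0.47, rho 0.38, adjusted permutation p = 0.42 and 0.79).

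By overall pattern across the 24 liver arrays, the genes most like Srebf1 among 10341 brighter genes were Znfx1 (r = 0.92), Dgat2 (0.92), Ttc7, Ttc23 and Shpk (0.90 each), with time of day included. Dgat2 encodes the last enzyme of triglyceride synthesis. Those most like Fasn were Tkt (0.81), Pdk1 (0.76), Trp53rkb, Elovl6 and Ank (0.75 each). Tkt encodes transketolase of the pentose phosphate pathway, and Elovl6 lengthens the palmitate that fatty acid synthase makes.

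The promoters of Srebf1 and of the 3 genes whose relation with it passed in liver are shown with every CCAAT box, the site of the factor NF-Y, in capitals. They are RefSeq windows of 300 bases on GRCm38.p6, most of it before an annotated start, 5′ to 3′ on the gene's strand. Srebf1 has 3 such windows, of which 2 hold a match and are printed; the array has 1 Srebf1 cluster, so transcripts from these starts are not told apart.
Srebf1, upstream window, chr11:60222532-60222831, minus strand: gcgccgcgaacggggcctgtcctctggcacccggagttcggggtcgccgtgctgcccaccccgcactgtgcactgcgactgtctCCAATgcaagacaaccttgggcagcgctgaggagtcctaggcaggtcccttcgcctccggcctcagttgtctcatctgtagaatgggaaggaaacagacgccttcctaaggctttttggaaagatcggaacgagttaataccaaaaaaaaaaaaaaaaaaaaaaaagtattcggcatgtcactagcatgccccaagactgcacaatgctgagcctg
Srebf1, downstream window, chr11:60210422-60210721, minus strand: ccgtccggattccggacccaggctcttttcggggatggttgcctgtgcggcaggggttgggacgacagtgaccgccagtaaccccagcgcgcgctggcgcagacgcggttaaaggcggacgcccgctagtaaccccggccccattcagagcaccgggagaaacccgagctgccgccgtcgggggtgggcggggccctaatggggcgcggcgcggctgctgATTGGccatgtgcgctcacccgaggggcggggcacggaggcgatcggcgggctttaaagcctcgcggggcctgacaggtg
Fasn, chr11:120824498-120824797, minus strand: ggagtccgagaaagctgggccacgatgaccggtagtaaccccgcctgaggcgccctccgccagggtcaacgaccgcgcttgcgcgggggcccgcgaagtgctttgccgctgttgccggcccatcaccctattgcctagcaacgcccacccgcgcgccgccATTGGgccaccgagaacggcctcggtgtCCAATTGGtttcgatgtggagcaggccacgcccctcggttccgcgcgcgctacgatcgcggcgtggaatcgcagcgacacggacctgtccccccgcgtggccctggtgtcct
Thrsp, chr7:97417501-97417800, minus strand: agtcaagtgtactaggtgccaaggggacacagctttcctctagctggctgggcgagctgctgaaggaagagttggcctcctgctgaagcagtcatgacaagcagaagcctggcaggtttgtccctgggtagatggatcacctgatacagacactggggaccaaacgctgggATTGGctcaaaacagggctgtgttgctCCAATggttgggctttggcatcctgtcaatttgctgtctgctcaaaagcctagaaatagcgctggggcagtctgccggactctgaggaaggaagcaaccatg
Pnpla3, chr15:84167566-84167865, plus strand: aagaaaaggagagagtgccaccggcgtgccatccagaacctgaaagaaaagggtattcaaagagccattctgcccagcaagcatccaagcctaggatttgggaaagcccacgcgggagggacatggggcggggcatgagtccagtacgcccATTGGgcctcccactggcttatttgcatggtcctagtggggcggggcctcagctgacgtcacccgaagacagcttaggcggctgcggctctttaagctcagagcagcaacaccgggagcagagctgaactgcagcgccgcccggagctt
The windows of Srebf1, Fasn, Acaca and Acly lie on chromosome 11, that of Thrsp on 7 and that of Pnpla3 on 15. CCAAT was searched on both strands (ATTGG on the other) and was found in 8 of 12 windows of the members, against 37.4% of 32851 windows. By gene it was found in 7 of the 8 that have a window. Some of these genes have several windows, and no share by gene was computed for other genes. In the Fasn window a CCAAT and an ATTGG overlap. The letters TCACNCCAC of a sterol regulatory element, to which SREBP binds, occurred in 1.24% of all windows and CACGTG, an E-box, in 7.15%, and neither was in a member's window. These matches describe letters only.

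In gut no lipogenic gene passed the test for time or for donor diet. Over the 3 diets Pnpla3 came nearest, with 73.2 to 144 units, a log2 fold change of -0.23 ± 0.09 at ZT12 (SE) and an adjusted p of 0.075, where 21.5% of genes were called (limma). It passed without KD ZT0 replicate 6 (-0.26 ± 0.09, adjusted p = 0.042), NC ZT0 replicate 6 (-0.28 ± 0.09, adjusted p = 0.027), HF ZT12 replicate 8 (-0.28 ± 0.08, adjusted p = 0.017) or KD ZT12 replicate 12 (-0.27 ± 0.09, adjusted p = 0.038; limma). Srebf1 was -0.14 ± 0.07 (adjusted p = 0.17), and in NC recipients its 4 ZT12 arrays, 313, 291, 302 and 313 units, lay below its 4 ZT0 arrays, 351, 333, 426 and 339, as in 4.15% of genes. Within single diets limma called 0 members for time, against 3.32% of genes in HF, 3.99% in KD and 2.39% in NC recipients. At unadjusted p under 0.05 there were 0 members too, against 3986 of the 20702 genes in HF, 4280 in KD and 3084 in NC recipients. Srebf1 at ZT12 had every KD array above every NC array, as 3.76% of genes did. Across the 6 donor comparisons of single times limma called 0 members, and at most 0.00483% of genes were called. At unadjusted p under 0.05 there was 1 member in 1 of the 6, against 756 to 1968 of the 20702 genes in each. The p-values of the authors' deposited tables called 0 of the 10 genes in gut too.

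In gut, Thrsp and Scd1 varied widely between arrays and followed adipocyte markers. Their highest and lowest gut values lay 23.7-fold and 9.96-fold apart, those of Me1 4.13-fold and those of Fasn 3.26-fold. For Srebf1, Acaca, Acly, Pnpla3, Gpam and Tm6sf2 they lay 1.40-fold to 1.98-fold apart. Thrsp had 53.8, 279, 1277 and 447 units in HF recipients at ZT12, where Adipoq, the fat cell hormone adiponectin, had 29.3, 337, 1266 and 377 units on the same arrays. At ZT0 NC replicate 6 was lowest in both, with 103 units of Thrsp and 56.5 of Adipoq. Scd1 had 654, 2762, 6514 and 3330 units in the same 4 HF arrays. One array, HF ZT12 replicate 10, was thus lowest of its group in Thrsp and Scd1 and replicate 8 highest, as they were in Adipoq.

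Across the 24 gut arrays, with group means removed, the mean of the 10 adipocyte markers correlated with Scd1 at r = 0.97 (rho 0.92, adjusted permutation p = 1e-04 and 4e-04), Thrsp at 0.94 (rho 0.84, 2.5e-04 and 8e-04) and Fasn at 0.81 (rho 0.73, 0.00645 and 0.0048). Without the 2 arrays farthest in the markers r was 0.95, 0.88 and 0.75. Me1 (r = 0.75), Acaca (0.70), Pnpla3 (0.70) and Gpam (0.65) passed as well, and Srebf1 (0.53), Acly (0.45) and Tm6sf2 (0.16) did not. These p-values were adjusted over the 10 genes only, and no share over all genes was computed for r. For Scd1 the smallest p that 100000 permutations can give, 1e-05 before adjustment, was reached. Hepatocyte markers, with Alb between 62.9 and 3579 units in gut, gave r from -0.25 to 0.34, B and plasma cell markers from -0.26 to 0.14, and neither passed for any gene. Markers of the intestinal epithelium passed for Tm6sf2 alone (r = 0.59, rho 0.69, adjusted permutation p = 0.0355 and 0.023), and did not on the deposited scaling (r = 0.47, rho 0.53, adjusted permutation p = 0.17 and 0.12). In all, 5 families of 10 relations were computed with markers, 4 in gut and 1 in liver.

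The adipocyte marker mean was then used as a covariate, in a fit chosen after these values were seen. In it 2 of the 10 gut genes were called for time over the diets, close to the share over all genes (21.8%). Thrsp was -0.40 ± 0.14 (limma adjusted p = 0.041; -0.37 ± 0.38 without the covariate) and Pnpla3 -0.23 ± 0.07 (adjusted p = 0.018). Thrsp thus fell at ZT12 in gut in that fit. Liver and gut were not compared with the covariate, and without it the difference of the Thrsp time effect between them did not pass (limma adjusted p = 0.056). The slope on the markers was 1.61 ± 0.13 for Thrsp and 1.33 ± 0.08 for Scd1 per log2 unit. It passed for these 2, Fasn (0.60 ± 0.10) and Me1 (0.67 ± 0.13), 4 of the 10 genes against 0.488% of all genes. With this adjustment over all genes, Acaca (limma adjusted p = 0.051), Pnpla3 (0.059) and Gpam (0.26), which passed by r among the 10, did not pass. No donor comparison of a gut member passed with the covariate. The marker list holds no lipogenic gene, but fat cells make these enzymes too, and whether fat tissue or other cells carried the values was not tested.

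**Figure D5:**
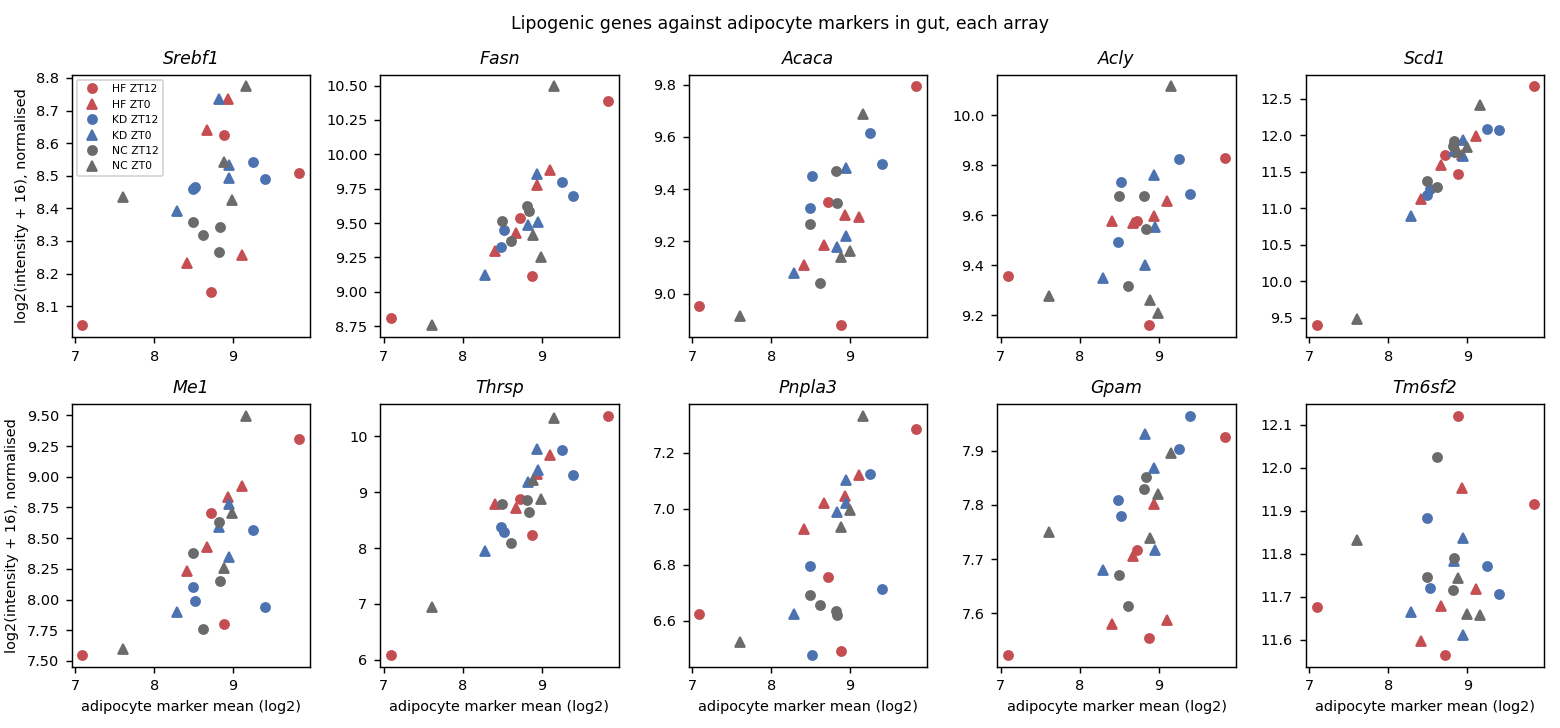
Normalised log2(intensity + 16) of each gene on each gut array against the mean log2 level of 10 adipocyte markers, by donor diet and time. Scd1 and Thrsp rise along the marker mean, HF ZT12 replicate 10 and NC ZT0 replicate 6 lie at its low end, and Tm6sf2 shows no slope.

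The genes of gut most like Fasn by pattern over 24 arrays, among 10342 brighter ones, were Lpl (r = 0.84), Fads3, Tmem120b (0.84 each), Adipoq and Retn (0.83 each). Adipoq and Retn encode the fat cell hormones adiponectin and resistin, and Lpl lipoprotein lipase. Those most like gut Srebf1 were Dhrs4 (0.86), Coq4, Ppdpf (0.85 each), Tmem135 and Rdh7. In gut no relation of Srebf1 with another member passed (r from 0.23 with Acly to 0.60 with Tm6sf2, lowest adjusted permutation p 0.18).

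Titles carry numbers that were read here as mouse codes, which the labels do not state, and 15 of 33 codes have an array of both tissues. In 13 of the 15 the mean deviation of the 10 genes from the group mean lay on the same side in liver and in gut. No such count was made for other genes, and over all genes the consensus correlation between arrays of one code was 0.038. NC ZT0 code 6 had -0.25 in liver and -0.64 in gut, HF ZT12 code 10 had -0.24 in liver and -0.68 in gut, and NC ZT0 code 4 had 0.14 in liver and 0.63 in gut. Gene by gene, Pnpla3 (r = 0.66, rho 0.68, permutation p = 0.035 and 0.026) and Fasn (r = 0.60, rho 0.68, permutation p = 0.023 and 0.025) had the highest correlations. None of the 10 passed after adjustment (lowest adjusted p 0.16 for r and 0.13 for rho), and without the 2 farthest codes r was 0.68 for Pnpla3 and 0.65 for Fasn.

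In lists of genes around the lipogenic core, some members passed for time in liver, where 28.3% of all genes did, and whether a list exceeds that share was not tested. Of 6 genes of SREBP processing and partners, Srebf2 among them, 3 fell at ZT12 and none rose. They were Insig2, which holds SREBP in the endoplasmic reticulum, at -1.92 ± 0.10 (SE, limma adjusted p = 2.1e-13), Insig1 at -0.41 ± 0.12 and the site-1 protease gene Mbtps1 at -0.13 ± 0.03. Of 11 other lipogenic regulators 4 rose and none fell, among them the coactivator Ppargc1b at 0.63 ± 0.05, Rxra at 0.46 ± 0.06 and Bhlhe40 at 0.83 ± 0.14.

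Of 13 further genes of fatty acid synthesis and activation 4 rose and 5 fell. Fads2, the delta-6 desaturase, rose by 0.53 ± 0.06, and Elovl5 (-0.44 ± 0.06), Acsl3 (-0.59 ± 0.13) and Acsl5 (-0.32 ± 0.07) fell. Of 13 genes of triglyceride synthesis 5 rose and 1 fell, led by Lpin1, the phosphatidate phosphatase, at 1.47 ± 0.14 (adjusted p = 1.2e-08), with Gpat4 at 0.47 ± 0.05, Dgat2 at 0.35 ± 0.04 and Agpat1 at 0.36 ± 0.05. Of 10 genes of NADPH supply none rose and 4 fell: G6pdx (-0.89 ± 0.19), Pgd (-0.35 ± 0.10), Taldo1 (-0.14 ± 0.04) and Me2 (-0.15 ± 0.05).

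Of 11 genes on or around the path from glucose to acetyl-CoA, inhibitors included, 5 rose and 5 fell. Pdk4, the fasting-induced kinase that shuts pyruvate dehydrogenase, was at -2.34 ± 0.21. Pdk2, another kinase of that enzyme, went the other way at 0.55 ± 0.05. Slc2a2 was at 0.55 ± 0.06 and Cs at -0.37 ± 0.06. Among 9 measured genes of the fasting and insulin response 3 rose and 2 fell, with Igfbp1 at -2.02 ± 0.24, Irs2 at -0.89 ± 0.15 and Cpt1a at 0.69 ± 0.06. Of 10 targets of the sister factor SREBP-2, which drives sterol synthesis, 3 fell in liver (Hmgcs1 -0.72 ± 0.14, Lss -0.42 ± 0.13, Cyp51 -0.32 ± 0.10). In gut all 10 rose (median 0.59, Lss 0.85 ± 0.11), where 21.5% of all genes were called in either direction. No gene of these lists passed in a donor comparison over both times in either tissue. In liver, 11 of the 13 further fatty acid genes were above NC in HF recipients (median 0.14) and 10 of 13 in KD recipients (median 0.10), without a call.

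In gut, Insig2 fell at ZT12 as well (-0.68 ± 0.09, limma adjusted p = 1.5e-05) and Insig1 rose (0.66 ± 0.11). Of the genes of NADPH supply 4 rose there and 1 fell, with Me3 at 0.61 ± 0.07, Idh1 at 0.36 ± 0.05 and Me2 at 0.31 ± 0.04. Of the further genes of fatty acid synthesis 4 rose and 1 fell, with the acetoacetyl-CoA synthetase gene Aacs at 0.58 ± 0.09. In triglyceride synthesis Lpin3 rose (0.25 ± 0.05) and Agpat2 fell (-0.23 ± 0.05), 2 of 13 genes, where 21.5% of all genes were called.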

How the data were processed

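The deposited values are linear intensity per transcript cluster. The submitters' processing notes name PLIER; neither its version nor a genome build is given there. The authors' deposited comparison tables also hold a p-value and a ratio of group means per cluster, which per the file headers compare HF or KD with NC at one tissue and time. Their values matched the value table within 0.001. Array medians were 88.2 to 104.4 units in liver and 124.9 to 135.8 in gut, and the number of arrays limits precision.

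Each intensity plus 16 was put on a log2 scale and quantile normalised within a tissue, and 1 cluster per gene (highest mean) was tested two-sided with limma 3.58.1 (R 4.3.3; lmFit, then eBayes). The 6 groups of a tissue shared a fit with 18 residual degrees of freedom, and p-values were adjusted over 20702 genes by Benjamini-Hochberg, with a threshold of 0.05. Liver minus gut was fitted over 48 arrays normalised together. Intensities are printed as deposited, fold changes as normalised. Correlations use deviations from group means, two-sided, with 100000 permutations of arrays within groups. Scripts were tested on simulated data. Python 3.11.15, numpy 2.4.6, pandas 2.3.3 and matplotlib 3.10.9 were used.

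The members and lists were chosen with earlier results of these data known. Beside the members, up to 4 genes of a list past the threshold with the smallest p, and the 5 genes most correlated with Srebf1 and Fasn, are named, except 1 gene that is not reported here. Alternatives were the deposited scaling, an offset of 1, fits to the compared groups alone, array weights, a robust prior with an intensity trend, removal of dim genes, each cluster by itself, a replicate block, each array left out and the authors' p-values. Replicate numbers shared between groups were checked for pairing.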

Additional observations from a re-analysis of the deposited data

Results flagged for a closer look

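Of 120 groups of 4 arrays (10 genes by 12 groups), 5 had an array set apart from the other 3 of its group by more than Dixon's critical value, and chance sets apart about 1 group in 20. In liver NC ZT0 replicate 6 had 716 units of Srebf1, where the other 3 arrays had 1171 to 1280, and 3175 units of Fasn, where the others had 4411 to 4680. KD ZT12 replicate 12 had 10727 units of Thrsp in liver, where the others had 9254 to 9385, and 662 units of Pnpla3, where the others had 252 to 274. In gut NC ZT0 replicate 4 had 1076 units of Acly, where the others had 582 to 628. The time effect of Srebf1 differed between liver and gut by 0.96 on the log2 scale (SE 0.15, limma adjusted p = 5.1e-06).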

How the results depend on the processing

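Replicate numbers in the titles were not taken to pair arrays of different groups. Same-numbered arrays had correlations of their deviations from -0.33 to 0.15 in liver (14 pairs) and from -0.27 to 0.46 in gut (16 pairs). Pairs with unlike numbers were not compared, so these values cannot settle whether the numbers pair arrays. With the replicate block, which ties the times through few shared numbers, the liver time effect had 2 called genes in HF, 1 in KD and 1 in NC recipients, and Pnpla3 over the diets reversed to 0.69 ± 0.37 (limma adjusted p = 0.34). In that fit Srebf1 passed in HF recipients (log2 fold change 1.60, adjusted p = 0.019), and Thrsp did not in KD (1.12, adjusted p = 0.11) or NC recipients (1.42, adjusted p = 0.055; limma). The gut time contrasts could not be fitted with the block. Fitting only the groups compared gave 2 called genes in HF and 4 in NC recipients, and array weights gave 2 in HF recipients. Leaving out 1 array gave 0 to 2 genes in HF, 1 to 2 in NC, 3 to 4 over the diets in liver and 0 to 1 over the diets in gut, where the adipocyte covariate, added after seeing the data, gave 2. For the time effect in liver minus gut, also added, the deposited scaling gave 2, leaving out dim genes 2, array weights 3, the mouse code as a block 2 and leaving out 1 array 1 to 3. Over all settings other than leaving out an array, those named above included, 244 counts of called genes stayed within 1.5 times the reported count. The remaining 11 did not. When an array was left out, 399 counts stayed within that range and 17 did not. The donor comparisons had 0 called genes of the 10 under all settings run. Uncalled fold changes changed sign in 545 combinations of gene, comparison and setting. These were not all near 0: the largest in the reported fit had a size of 0.96 log2 units, that of Pnpla3 over time in liver of HF recipients. The 4 arrays per group limit what donor effects of this size can show.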
